A study of Mus musculus with 12 samples.

Results

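The Hox genes are 38 of the 38924 genes in each deposited table, taken as every gene whose listed name is Hox, a cluster letter from a to d, and a paralog group number. They encode homeodomain transcription factors and lie in 4 clusters: 11 Hoxa genes, 10 Hoxb genes, 9 Hoxc genes and 8 Hoxd genes. Whole spinal cord of mice on the B6J.Cg background, aged 8 weeks, was sequenced as 12 polyA libraries. C201R mice carry the C201R change in Gars, which encodes glycyl-tRNA synthetase, with the genotype tag C201R+/-, and WT mice carry the tag C201R+/+, both read here with the titles as heterozygous and wild type. The titles give 3 female and 3 male libraries of each genotype. No label says which segments of the cord were taken, or whether the libraries are from different animals.

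The labels disagree with each other and with the data. By title, libraries 1, 2, 3, 10, 11 and 12 are C201R and libraries 4 to 9 are WT. By library name, libraries 1, 2, 3, 4, 9 and 10 are C201R and libraries 5, 6, 7, 8, 11 and 12 are WT. The 2 labellings give the same genotype for 8 libraries and opposite genotypes for libraries 4, 9, 11 and 12. Xist was at 108.75 to 129.11 TPM (the authors' length-scaled share of transcripts) in libraries 1, 2, 3, 8, 11 and 12, of which 2, 3 and 8 are titled male. It was at 0.02 TPM or below in the other 6, of which 4, 5 and 6 are titled female. Genotype was therefore compared by library name, by title and over the 8 undisputed libraries (4 C201R and 4 WT), and these comparisons share libraries. By title, Xist was high in C201R libraries 1, 2, 3, 11 and 12 and in WT library 8. In the undisputed libraries it was high in 1, 2 and 3 of C201R and in 8 of WT. Genotype and sex by Xist are thus largely confounded in both, and titled sex, the term in the fits, does not separate them. By library name Xist was balanced, being high in C201R libraries 1, 2 and 3 and WT libraries 8, 11 and 12. Titled sex was not balanced by name, with libraries 1 and 4 of C201R and 5, 6, 11 and 12 of WT titled female. The fit by name therefore also carries a sex term that Xist contradicts in libraries 2, 3, 4, 5, 6 and 8. The libraries held 27175421 to 38271405 expected counts. Gars was at 104.44 to 134.43 TPM, with a difference of 0.15 ± 0.03 (log2, SE) by library name and 0.03 ± 0.05 by title (edgeR adjusted p = 0.0343 and 0.934). Because C201R changes an amino acid, the level of Gars does not check the genotype. The forebrain and midbrain marker Otx2 was at 0 TPM in every library, and the motor neuron gene Chat was at 10.78 to 18.54 TPM.

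Hox genes are switched on in the embryo in the order in which they lie on the chromosome, so that low-numbered paralog groups start in the hindbrain and neck and high-numbered groups are confined to the lumbar, sacral and tail levels. In the spinal cord this code gives motor neurons their segment. Group 5 acts in phrenic motor neurons, Hoxc6 and Hoxc8 at forelimb level, group 9 in the thoracic cord and group 10 at hindlimb level. Many Hox genes stay on in the adult cord, so their mix in a piece of cord carries a record of the levels it holds. In whole tissue, fewer cells of a level and less RNA per cell cannot be told apart.

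The clusters also hold microRNAs that act on Hox mRNAs. Their mature sequences are shown because the transcript with the highest level of all 38, Hoxb8, carries a nearly complete match to one of them. Capitals mark the seed, bases 2 to 8, and the sequences are from RefSeq (GRCm38.p6).
miR-196a-5p: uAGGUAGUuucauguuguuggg
miR-196b-5p: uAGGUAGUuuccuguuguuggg
miR-10a-5p: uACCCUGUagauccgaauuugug
miR-10b-5p: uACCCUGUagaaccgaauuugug
The miR-196 pair shares the seed AGGUAGU and the miR-10 pair shares ACCCUGU. A stretch of 22 bases in the 3′ untranslated region of Hoxb8 (GENCODE M21) is complementary to miR-196a-5p at 21 bases, in capitals here.
Hoxb8 site: CCCAACAACAUGAAACUgCCUA
The base in lower case faces a base of the seed, so this site lacks the full seed complement. The best window of any other Hox gene, in Hoxd8, pairs at 15 of 22 bases. The 7-base complement of the miR-196 seed, ACTACCT on the sense strand, is in the 3′ untranslated region of 9 of 38 Hox genes (23.7%), against 6.09% of the 20981 genes with such a region. Among them are Hoxa4, Hoxa5, Hoxa7, Hoxa9, Hoxb1, Hoxb6, Hoxb7 and Hoxc8, but not Hoxb8. The miR-10 complement, ACAGGGT, is in 4 of 38 (10.5%), among them Hoxa3, Hoxb3 and Hoxd1, against 12.5% of all genes. Mature microRNAs were not measured by these polyA libraries, and the host gene rows held at most 1 count over all libraries.

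The start regions of Hoxb8 and Hoxa13 are shown for the gene with the highest level and for a gene that was nearly absent from 3 libraries. Each runs from 250 bases before to 50 bases after the RefSeq start (GRCm38.p6), Hoxb8 at chr11:96281655-96281954 on the plus strand and Hoxa13 at chr6:52260831-52261130 on the minus strand. Capitals mark TTTATG on either strand, a motif of Cdx factors, which act upstream of central Hox genes in the embryo.
Hoxb8: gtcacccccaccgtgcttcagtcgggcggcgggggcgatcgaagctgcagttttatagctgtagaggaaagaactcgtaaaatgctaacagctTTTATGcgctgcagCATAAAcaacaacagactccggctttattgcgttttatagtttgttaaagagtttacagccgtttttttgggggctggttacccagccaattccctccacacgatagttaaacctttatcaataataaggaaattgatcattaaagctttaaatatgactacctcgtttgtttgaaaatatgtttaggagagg
Hoxa13: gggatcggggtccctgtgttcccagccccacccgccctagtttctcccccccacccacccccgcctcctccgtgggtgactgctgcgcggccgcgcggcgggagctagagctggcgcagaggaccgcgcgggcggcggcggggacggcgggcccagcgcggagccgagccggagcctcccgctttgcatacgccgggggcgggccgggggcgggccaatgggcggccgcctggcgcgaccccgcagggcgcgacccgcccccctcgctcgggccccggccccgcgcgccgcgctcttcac
Hoxb8 holds the motif once on each strand and Hoxa13 does not hold it. It is in 4 of the 23 Hox start regions matched, those of Hoxa7, Hoxb8, Hoxd3 and Hoxd11, against 11.9% of 32851 start regions of the same length. GC content is 42.3% in the Hoxb8 stretch and 81.0% in that of Hoxa13, beside a median of 52.7% over all start regions and 58.0% over the Hox regions. Cdx1 and Cdx2 were at 0 TPM in every library.

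Summed over the genes of a paralog group, Hox transcripts were highest at group 8, with a smaller peak at group 3. The 38 genes summed to 797.76 to 987.54 TPM per library. Group 8 held 32.6% ± 0.84 of that sum (SD, n = 12) and groups 4 to 8 together 62.0% ± 1.37. Groups 1 to 3 held 9.75% ± 0.36, group 9 held 15.1% ± 0.53 and groups 10 to 13 held 13.2% ± 1.23. Group 3 summed to 71.3 ± 4.54 TPM, above group 4 at 25.7 ± 1.86 TPM and group 5 at 56.5 ± 4.14 TPM. Of the group 3 sum, 44.8 TPM came from the row listed as Hoxd3, which also holds transcripts of Hoxd4, so the smaller peak and the shares of groups 1 to 3 and 4 to 8 depend on where this row is placed. The Hoxb cluster gave 43.7% ± 1.15 of the sum and the Hoxa cluster 23.4% ± 0.48. The Hoxc cluster gave 16.5% ± 0.77 and the Hoxd cluster 16.4% ± 0.80.

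**Figure D1:**
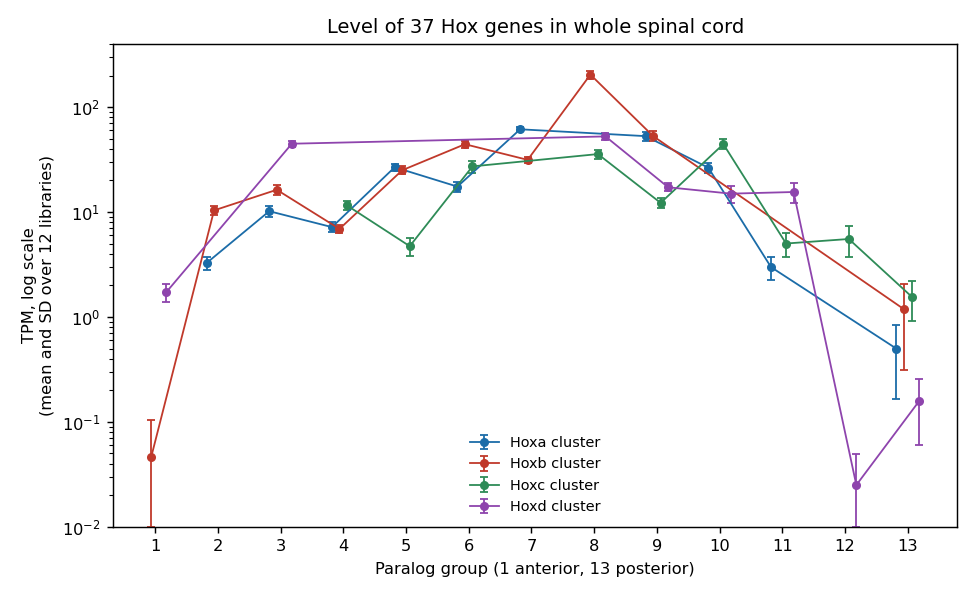
Mean TPM of 37 of the 38 Hox genes on a log axis against paralog group, 1 line per cluster, with bars for the SD over 12 libraries (bars are cut at 0.01 TPM) and lines joined across absent groups. Hoxb8 stands highest at 204 TPM, and Hoxd12 lowest at 0.025 TPM.

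The peak lay at group 7 in the Hoxa cluster, at group 8 in Hoxb and Hoxd, and at group 10 in Hoxc. Hoxb8, whose loss in mice is known for excessive grooming and altered pain responses, averaged 204 ± 18.3 TPM (SD, n = 12) and ranked first among the 38 in all 12 libraries. Its range of 168.25 to 229.14 TPM did not reach that of any other Hox gene. Hoxa7, a thoracic patterning gene, averaged 61.5 ± 2.61 TPM. Hoxb9 (53.0 ± 5.71 TPM), Hoxa9 (52.9 ± 5.06) and Hoxd8 (52.6 ± 4.17) came next and did not differ beyond their spread. The row listed as Hoxd3 (44.8 ± 2.83 TPM), Hoxc10 (44.4 ± 4.87) and Hoxb6 (44.3 ± 3.17) formed a further overlapping set. The Hoxd3 row is not 1 gene: of its 9 transcripts, GENCODE M21 gives 5 to Hoxd3, 3 to Hoxd4 and 1 to Gm28230, and Hoxd4 has no row of its own.

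Group 1, which patterns hindbrain segments, was low, with Hoxd1 at 1.73 ± 0.34 TPM and Hoxb1 at 0.00 to 0.17 TPM (0 to 4 counts per library). Hoxb2 at 10.4 ± 0.99 TPM was the higher gene of group 2. In group 4, Hoxc4 led with 11.6 ± 1.17 TPM. In group 5, Hoxa5, needed for phrenic motor neurons, averaged 26.7 ± 2.17 TPM, and its partner Hoxc5 averaged 4.73 ± 0.93 TPM. Hoxc6, a forelimb-level motor neuron gene, averaged 27.2 ± 3.44 TPM. Hoxc8, which sets motor pools of the forelimb, averaged 35.7 ± 3.77 TPM, and Hoxc9, which sets thoracic motor neuron identity, averaged 12.2 ± 1.31 TPM. Hoxc10 was the highest of the hindlimb-level group 10, above Hoxa10 (26.5 ± 3.00 TPM) and Hoxd10 (15.0 ± 2.67 TPM). Beyond it, Hoxd11 averaged 15.5 ± 3.38 TPM and Hoxc12 5.54 ± 1.79 TPM. In group 13, Hoxc13 averaged 1.57 ± 0.66 TPM, and Hoxd13, which patterns digits and the genital tubercle, was at 0.03 to 0.31 TPM (1 to 13 counts). Hoxd12 was at 0.00 to 0.06 TPM (0 to 2 counts).

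Neighbouring genes share sequence here, which bears on single rows. In GENCODE M21, 22 of the 38 genes overlap another gene and 13 overlap one on the opposite strand. The Hoxc5 gene spans Hoxc6, Hoxc8 and Hoxc9 and overlaps part of Hoxc10, so the split of reads among these 5 rows is uncertain. The Hoxa3 gene likewise spans Hoxa4, Hoxa5 and Hoxa6 on the same strand, so the split among those rows is uncertain too. Of the 5 transcripts in the Hoxa3 row, GENCODE M21 gives 1 to Gm28308. Whether the counting used strand is not given in the sources used here. The opposite-strand transcripts were not negligible: Hoxd3os1 beside the Hoxd3 row and Hoxd8 averaged 16.5 TPM, and Hoxa11os beside Hoxa11 averaged 3.38 TPM.

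Among the 35 genes that passed the filter on low counts, the libraries differed most in the last genes of the Hoxa, Hoxb and Hoxc clusters. Hoxb13, which limits growth of the caudal neural tube and tail, and Hoxa13, which patterns the distal limb and hindgut, were nearly absent from libraries 7, 9 and 11 and present in the other 9. Hoxb13 had 0.03, 0.07 and 0.06 TPM in libraries 7, 9 and 11, from 1, 3 and 2 counts, against 0.94 to 2.76 TPM in the others, from 35 to 95 counts. The exact Poisson 95% interval of 3 counts reaches 8.77 and that of 35 counts starts at 24.4, which covers counting error only. Hoxa13 had 0.10, 0.09 and 0.03 TPM in the same libraries, from 1, 2 and 1 counts, against 0.30 to 1.15 TPM in the others, from 10 to 38 counts. For Hoxa13 the interval of 2 counts reaches 7.23 and that of 10 counts starts at 4.80, so these nearest libraries overlap in counting error.

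The pattern followed neither labelling of genotype. Library 7 is WT by both labels, library 9 is named C201R and titled WT, and library 11 is titled C201R and named WT. Among these libraries, 7 and 9 hold Y-linked transcripts and 11 holds Xist. Hoxc13, known for hair and nail formation, was at 0.27 TPM in library 7, 1.06 TPM in library 9 and 0.82 TPM in library 11, the 3 lowest values, against 1.31 to 2.82 TPM in the others. Hoxc12 was lowest in library 7 at 2.27 TPM and next lowest in library 11 at 3.73 TPM, but library 9 at 4.93 TPM lay within the range of the rest, 3.89 to 8.10 TPM. Hoxd13 had 6, 12 and 3 counts in libraries 7, 9 and 11 and 1 to 13 in the others, so it did not share the pattern. Nor did Hoxd11, at 12.30, 14.76 and 14.39 TPM in these libraries beside 11.76 to 21.85 TPM in the others.

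**Figure D2:**
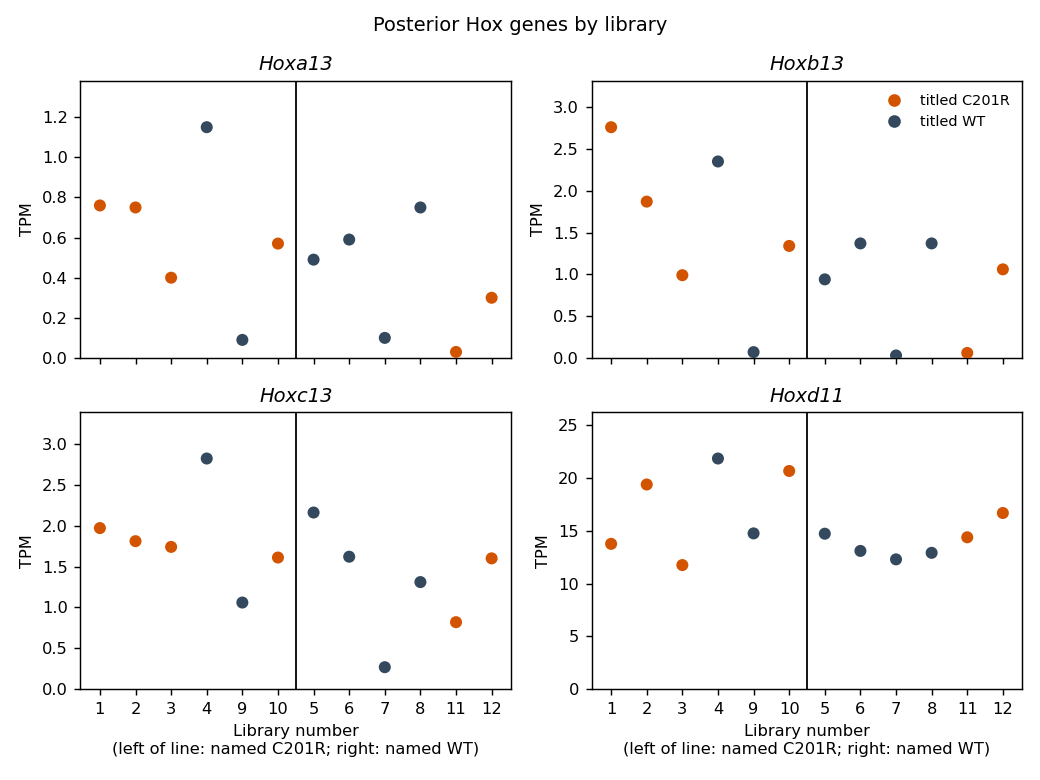
TPM of Hoxa13, Hoxb13, Hoxc13 and Hoxd11 in each of the 12 libraries, named C201R left of the line and named WT right of it, with colour for the title genotype. Libraries 7, 9 and 11 lie near 0 for Hoxa13 and Hoxb13, while Hoxd11 in them lies within the range of the others.

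The sum of 3 fat markers was lowest in the libraries low in Hoxa13 and Hoxb13. It was 0.45, 0.59 and 0.74 TPM in libraries 7, 9 and 11 and 1.2 to 195.08 TPM in the others. Single markers did not all separate: Plin1 was at 0.07, 0 and 0 TPM in libraries 7, 9 and 11, and also at 0.07 TPM in libraries 1 and 12. Among the others, the sum was 1.95 TPM in library 1 and 195.08 TPM in library 3, where Hoxb13 was at 2.76 and 0.99 TPM. The summed level of 7 dorsal root ganglion markers was 0.76, 1.15 and 0.91 TPM in libraries 7, 9 and 11. It was as low in libraries 1, 3 and 8, at 1.14, 1.33 and 1.18 TPM, where Hoxb13 was at 2.76, 0.99 and 1.37 TPM, and was 5.92 to 39.61 TPM in the other 6, so these markers did not follow the pattern. Scn10a, Mrgprd and Tlx2 of that list reached 0 TPM. The 6 skeletal muscle markers summed to 117.26, 619.38 and 22.52 TPM in libraries 7, 9 and 11, within the span of 21.03 to 2435.99 TPM of the others. The 5 measured motor neuron markers summed to 131.98, 106.18 and 127.96 TPM in libraries 7, 9 and 11, also within the 96.90 to 187.56 TPM of the others. The part of these tissues in the Hox values was not tested.

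At the other end, library 4 stood above the rest in posterior genes. It held the highest value of 7 of the 10 tested genes of groups 10 to 13, and of 3 genes of lower groups (Hoxb2, Hoxa3 and the Hoxd3 row). The highest values of Hoxa10, Hoxc12 and Hoxb13 were in libraries 3, 2 and 1. Library 10 held the highest value of 9 genes, all of groups 3 to 9. Groups 10 to 13 made up 15.8% of Hox TPM in library 4, 14.7% in library 2 and 14.2% in library 10, against 11.5 to 13.3% in the other 9. Hoxd10 was at 21.55 TPM in library 4 and 18.47 TPM in library 10, and Hoxd11 at 21.85 and 20.67 TPM. Library 2 followed with 17.07 TPM of Hoxd10 and 19.39 TPM of Hoxd11. The dorsal root ganglion markers summed to 12.36, 29.19 and 16.64 TPM in libraries 4, 2 and 10. They were highest, at 39.61 TPM, in library 6, where Hoxd11 was at 13.10 TPM, and their part was not tested. The lowest values gathered in libraries 5, 6 and 7, which held the minimum of 9, 8 and 6 of the tested genes.

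**Figure D3:**
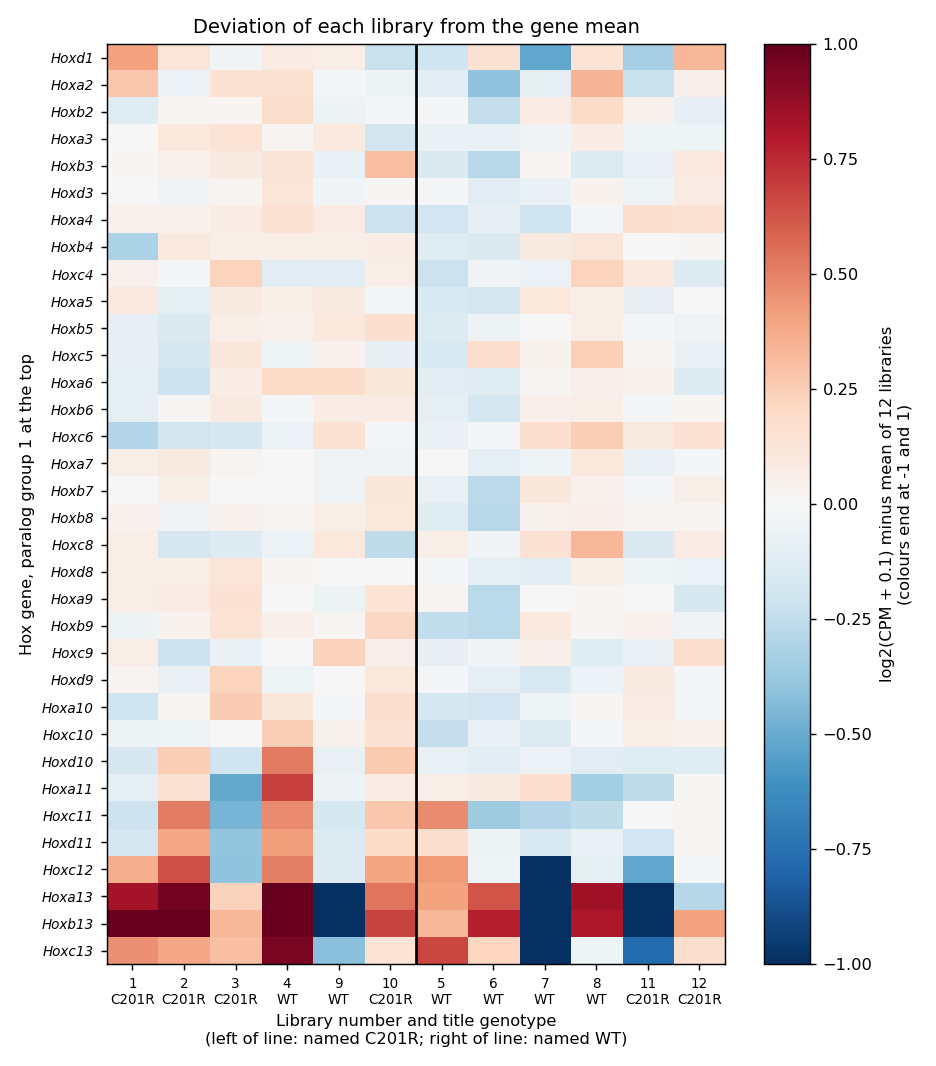
Deviation of log2(CPM + 0.1) from the gene's mean over 12 libraries for 34 of the 35 Hox genes that passed the filter, rows from paralog group 1 at the top to 13 at the bottom, libraries named C201R left of the line and named WT right of it, with the title genotype under each number. Rows of groups 1 to 10 are mostly pale, with single stronger values such as 0.52 for Hoxd10 in library 4. The rows of group 13 range from a median of -2.06 in library 7 to 1.38 in library 4, both beyond the ends of the colour scale.

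The spread between libraries was larger in groups 11 to 13 than in the groups before them. Over 12 libraries, the coefficient of variation of TPM had a median of 9.05% in the 14 genes of groups 4 to 8, beside 9.37% over all 17765 genes tested. It was 11.1% for the 7 tested genes of groups 1 to 3, 11.3% for the 3 genes of group 10 and 32.3% for the 7 tested genes of groups 11 to 13. Hoxa7 was the steadiest of the tested Hox genes at 4.24%, with 4.81% of the genes tested below it, and Hoxb13 the least steady at 73.6%, with 98.1% of them below it. Counting error alone gives 15.8% for Hoxb13 and 24.6% for Hoxa13, whose coefficient was 67.0%. For Hoxd11 the coefficient was 21.8%, where counting gives 5.15%.

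Genotype was then compared over the libraries. Of the 38 genes, 35 passed the filter, and Hoxb1, Hoxd12 and Hoxd13 did not. No Hox gene passed an adjusted p of 0.05 by library name (edgeR), where 0.715% of all genes did, nor by title, where 0% did, nor in the undisputed libraries, where 0.163% did. DESeq2 also called 0 of them in each comparison. At an unadjusted p under 0.05 in edgeR there were 4 Hox genes by name (12.8% of all genes), 2 by title (6.77%) and 4 in the undisputed libraries (13%). DESeq2 gave 6, 1 and 3. In every comparison the TPM ranges of C201R and WT overlapped for all 35 genes, where 1.03%, 0.259% and 6.92% of all genes had groups that did not overlap by name, by title and in the undisputed libraries.

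By library name, 29 of the 35 fitted differences lay above 0 and 6 below, with a median of 0.08 (log2, C201R minus WT) beside 0.00 over all genes. By title the split was 22 and 13 with a median of 0.04, and in the undisputed libraries 28 and 7 with a median of 0.08. Without the term for titled sex the splits were 32 and 3 by name, 21 and 14 by title, and 29 and 6 in the undisputed libraries. The medians by library name were 0.13 for groups 1 to 3, 0.02 for groups 4 to 8, 0.08 for group 9 and 0.24 for groups 10 to 13. By title the same groups had medians of 0.04, 0.01, 0.10 and 0.05, and in the undisputed libraries 0.12, 0.03, 0.13 and 0.14. These genes lie in few stretches of chromosome and share the libraries' differences in level, so the splits are descriptions.

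**Figure D4:**
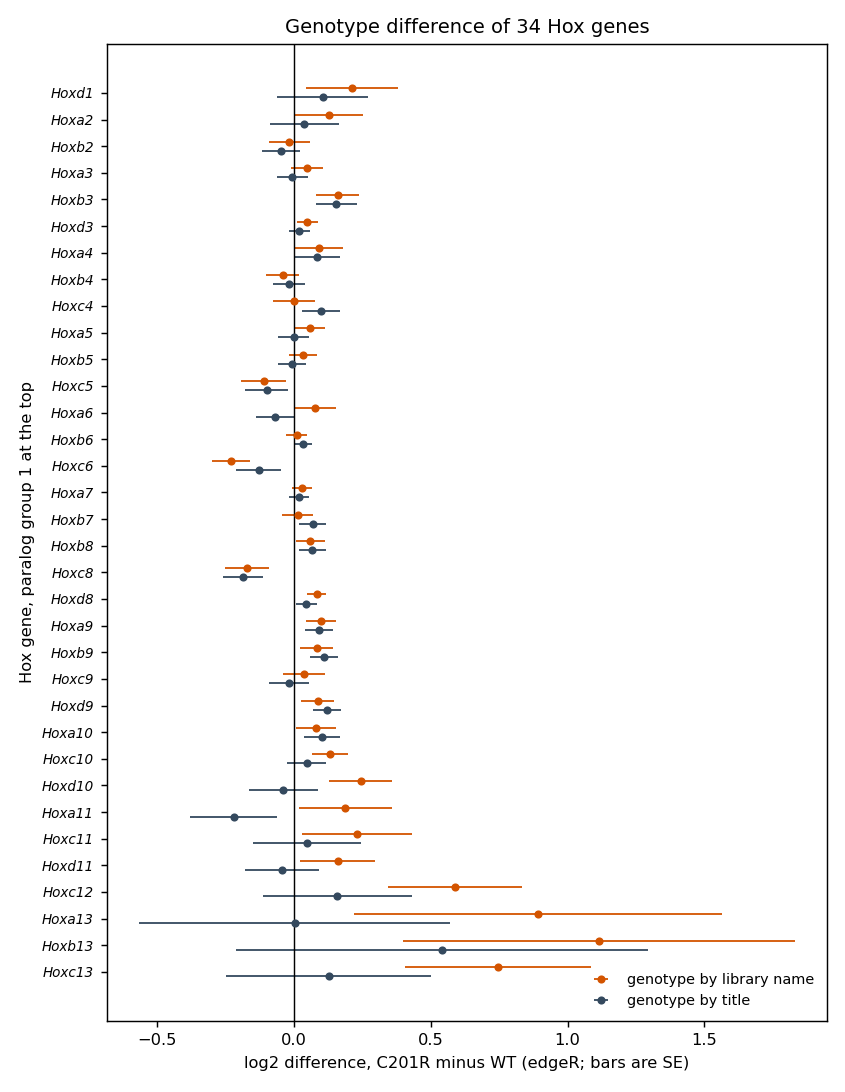
Log2 difference in expression, C201R minus WT, for 34 of the 35 tested Hox genes by library name and by title, with bars for the standard error from edgeR. Most points lie close to 0, and the wide bars at the bottom belong to Hoxc12, Hoxa13, Hoxb13 and Hoxc13.

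Hoxc6 had the lowest p by library name. Libraries named C201R were at 21.50, 23.24, 22.64, 27.12, 30.19 and 29.06 TPM (libraries 1, 2, 3, 4, 9 and 10), against 24.39, 27.59, 29.68, 31.55, 29.77 and 30.21 TPM in those named WT (5, 6, 7, 8, 11 and 12). Libraries 1 to 3 were the lowest of the 12, and the other libraries named C201R lay among the WT values. The difference was -0.23 ± 0.07 (log2, SE) with an edgeR adjusted p of 0.173. By title it was -0.13 ± 0.08, with 26.1 ± 4.01 TPM in C201R and 28.4 ± 2.57 TPM in WT (SD, n = 6 each) and an edgeR adjusted p of 0.826. In the undisputed libraries it was -0.29 ± 0.06 with an edgeR adjusted p of 0.0930. There it passed only without library 10, a C201R library at 29.06 TPM, with an edgeR adjusted p of 0.0469.

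Hoxc8 had the lowest p by title. Titled C201R libraries had a low, median and high of 30.73, 32.77 and 37.85 TPM, against 34.45, 37.18 and 43.20 TPM in titled WT libraries. The ranges overlapped, and the difference of -0.19 ± 0.07 had an edgeR adjusted p of 0.686. By library name it was -0.17 ± 0.08 with an edgeR adjusted p of 0.395, and in the undisputed libraries -0.26 ± 0.09 with an edgeR adjusted p of 0.296. Next by title came Hoxd9 and Hoxb9, thoracic-level genes, and Hoxb3, a hindbrain and neck gene. Hoxd9 averaged 18.1 ± 1.52 TPM in titled C201R and 16.3 ± 0.85 TPM in titled WT libraries (edgeR adjusted p = 0.715). Hoxb9 averaged 55.4 ± 4.58 TPM in titled C201R and 50.5 ± 6.02 TPM in titled WT libraries (edgeR adjusted p = 0.748). Hoxb3 averaged 17.1 ± 1.59 TPM in titled C201R and 15.5 ± 1.35 TPM in titled WT libraries (edgeR adjusted p = 0.756). By library name these 3 differed by 0.09 ± 0.06, 0.08 ± 0.06 and 0.16 ± 0.08, and in the undisputed libraries by 0.16 ± 0.07, 0.12 ± 0.05 and 0.21 ± 0.08, and none passed in edgeR.

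By library name, Hoxc12 and Hoxc13 followed Hoxc6 among the lowest p values, with Hoxd8. Hoxc12 had a low, median and high of 3.89, 7.06 and 8.10 TPM in libraries named C201R, against 2.27, 4.89 and 6.76 TPM in those named WT. Its difference was 0.59 ± 0.25 with an edgeR adjusted p of 0.343. Hoxc13 was 0.75 ± 0.34 with an edgeR adjusted p of 0.387, and Hoxd8 0.08 ± 0.04 with an edgeR adjusted p of 0.350. Hoxb13 (1.11 ± 0.72) and Hoxa13 (0.89 ± 0.67) had large differences with large errors, and edgeR adjusted p values of 0.570 and 0.648. Without libraries 7, 9 and 11, a choice made after seeing the data, Hoxb13 was 0.71, Hoxa13 0.49, Hoxc13 0.36 and Hoxc12 0.33 by name, and none passed. Single libraries also moved these values: without library 8, Hoxb13 was 1.99 and Hoxa13 1.70, and without library 7, Hoxc13 was 0.45, Hoxc12 0.39 and Hoxd8 0.05. By title Hoxc12, Hoxc13, Hoxd8, Hoxb13 and Hoxa13 differed by 0.16 ± 0.27, 0.13 ± 0.37, 0.04 ± 0.04, 0.54 ± 0.75 and 0.00 ± 0.57. In the undisputed libraries the same genes differed by 0.58 ± 0.33, 0.67 ± 0.44, 0.10 ± 0.05, 1.07 ± 0.63 and 0.57 ± 0.59, and none passed in edgeR.

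For the highest gene, Hoxb8, libraries named C201R averaged 211 ± 15.7 TPM and those named WT 198 ± 19.6 TPM (SD, n = 6 each). Titled C201R libraries averaged 209 ± 14.6 TPM and titled WT libraries 199 ± 21.4 TPM. Its differences were 0.06 ± 0.05 by name and 0.07 ± 0.05 by title, with edgeR adjusted p values of 0.701 and 0.857, and 0.08 ± 0.06 in the undisputed libraries (edgeR adjusted p = 0.624). Hoxa7, the second highest, differed by 0.03 ± 0.04 by name and 0.02 ± 0.04 by title. Hoxa9, Hoxb6, the Hoxd3 row and Hoxc10 differed by 0.10 ± 0.05, 0.01 ± 0.04, 0.05 ± 0.04 and 0.13 ± 0.07 by name. By title the same genes differed by 0.09 ± 0.05, 0.03 ± 0.03, 0.02 ± 0.04 and 0.05 ± 0.07, and none passed in edgeR.

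The leading gene of each remaining paralog group had a higher mean in C201R by library name, within the overlap of the ranges. Hoxd1 averaged 1.82 ± 0.27 TPM in libraries named C201R and 1.63 ± 0.39 TPM in those named WT (SD, n = 6 each). Hoxb2 averaged 10.5 ± 0.66 TPM in C201R and 10.2 ± 1.29 TPM in WT by name. Hoxc4 averaged 11.8 ± 1.03 TPM in C201R and 11.3 ± 1.33 TPM in WT. None of the 5 passed, and the fitted differences of Hoxb2 and Hoxc4, scaled to library size by edgeR, were -0.02 ± 0.07 and 0.00 ± 0.08. Hoxa5 averaged 27.7 ± 1.76 TPM in C201R and 25.8 ± 2.23 TPM in WT, and Hoxd11 17.0 ± 4.14 TPM in C201R and 14.02 ± 1.599 TPM in WT. By title Hoxb2 had the lower mean in C201R, 10.3 ± 0.43 TPM, against 10.5 ± 1.39 TPM in WT.

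The share of Hox TPM in groups 10 to 13 describes how posterior each library's mix was. Group 10 held 9.55% of Hox TPM and group 13 held 0.38%, so the share mostly follows group 10. It did not track the group 13 pattern in every library. Libraries 9 and 11, nearly without Hoxa13 and Hoxb13, were at 12.2 and 12.6%, above library 8 at 12.1%, while library 7 was lowest at 11.5%. Libraries named C201R averaged 13.7% ± 1.46 and those named WT 12.7% ± 0.74 (SD, n = 6 each), a difference of 1.03 percentage points. Titled C201R libraries averaged 13.3% ± 0.95 and titled WT libraries 13.04% ± 1.54, a difference of 0.26 points. In the undisputed libraries, which leave out library 4, the shares were 13.5% ± 1.13 in C201R and 12.5% ± 0.91 in WT (SD, n = 4 each), a difference of 0.97 points, and 0.57 points without library 2 and 0.61 points without library 7. The ranges by name were 12.2 to 15.8% for C201R and 11.5 to 13.3% for WT. They overlapped, and library 4, with the highest share, is C201R by name and WT by title. Without library 4 the difference was 0.61 points by name and 0.82 points by title. By title its sign turned without library 2 (-0.02 points), without library 7 (-0.05 points), without libraries 7, 9 and 11 (-0.20 points) and with expected counts in place of TPM (-0.0044 points). No test is given for this score.

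**Figure D5:**
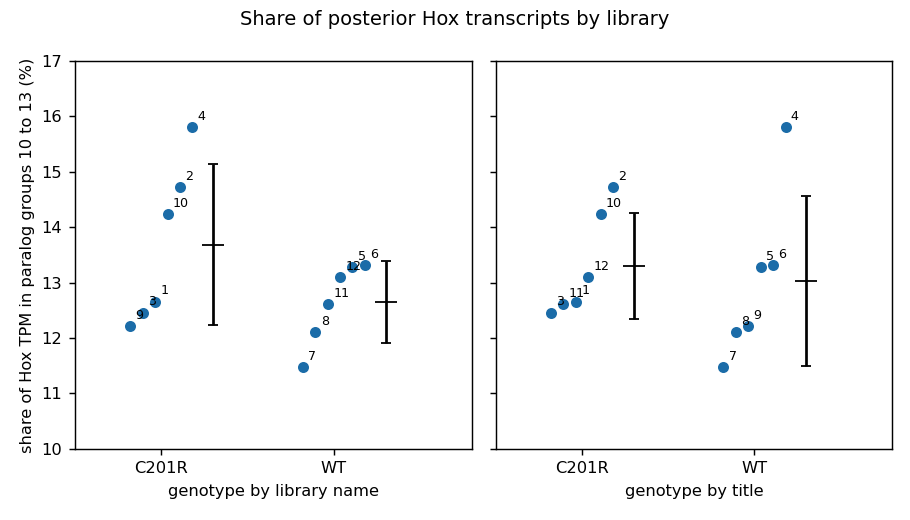
Share of Hox TPM from paralog groups 10 to 13 in each library, with C201R left and WT right, by library name in the left panel and by title in the right panel; numbers are libraries, and the black mark and bar are mean and SD. Library 4 at 15.8% changes side between the panels, and the groups overlap in both.

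Genes that work with or on Hox genes were read from further lists, by library name unless stated. In the undisputed libraries no gene of these lists passed other than Chat, given last. All 9 TALE homeodomain cofactors, the Pbx, Meis and Pknox genes that bind DNA together with Hox proteins, were tested, and none passed by name or by title. Their fitted differences by name ran from -0.05 to 0.06, with a median of 0.04. Meis2 was at 33.97 to 45.92 TPM and Pbx3 at 25.56 to 31.30 TPM over the 12 libraries. Of 20 Polycomb and Trithorax genes, which keep Hox genes off and on through cell division, none passed in either comparison. The lowest p by name was that of Cbx7, a Polycomb subunit (0.15 ± 0.04, edgeR adjusted p = 0.104).

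Retinoic acid turns on anterior Hox genes in the embryo, and 15 of 17 genes of its pathway were tested, with none passing. Aldh1a1, a retinaldehyde dehydrogenase, averaged 137 ± 6.81 TPM in libraries named C201R and 150 ± 7.11 TPM in those named WT (difference -0.16 ± 0.04, edgeR adjusted p = 0.0677). Rxra, a retinoid X receptor, differed by -0.08 ± 0.03 by name (edgeR adjusted p = 0.317). Only 4 of 9 Cdx and trunk patterning genes had enough counts to test. None passed, with Gdf11, which promotes posterior Hox expression in the embryo, at -0.10 ± 0.04 (edgeR adjusted p = 0.298), and Tbx6, a mesoderm factor, at -0.37 ± 0.22 (edgeR adjusted p = 0.528) by name.

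Of 21 noncoding RNAs of the clusters, 16 had rows and 9 were tested, with 5 differences above 0 and 4 below by name and none passing. Hoxa11os, antisense to Hoxa11, averaged 4.14 ± 0.92 TPM in libraries named C201R and 2.62 ± 0.36 TPM in those named WT (0.57 ± 0.17, edgeR adjusted p = 0.169). Hoxd3os1, antisense to the Hoxd3 row, averaged 17.4 ± 1.44 TPM in libraries named C201R and 15.7 ± 2.09 TPM in those named WT (0.25 ± 0.09, edgeR adjusted p = 0.251). By title they were 0.33 ± 0.20 and 0.07 ± 0.10, and neither passed in edgeR. None of the 11 tested neighbours of the clusters passed. Skap2 and Snx10, beside the Hoxa cluster, differed by -0.14 ± 0.05 and -0.19 ± 0.08 by name.

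Of 17 genes of motor column and pool identity, programmes that Hox genes steer in the embryo, 1 passed by name and none by title. Over all genes, 0.715% passed by name and 0% by title. The fitted differences of the 17 by name lay above 0 in 9 and below in 8, with a median of 0.00. Lhx4, a LIM homeodomain factor of motor neurons and interneurons, fell by name, with 2.76 ± 0.55 TPM in C201R and 3.55 ± 0.21 TPM in WT (-0.44 ± 0.07, edgeR adjusted p = 0.0131). Among the 5 measured motor neuron markers, 2 differences lay above 0 and 3 below by name, and only Chat passed. Chat, which makes acetylcholine, fell by name, with 12.2 ± 1.14 TPM in C201R and 16.5 ± 1.13 TPM in WT (-0.45 ± 0.06, edgeR adjusted p = 0.00431). By title neither passed: Chat was at -0.29 ± 0.11 and Lhx4 at -0.28 ± 0.11, both with an edgeR adjusted p of 0.673. In the undisputed libraries Chat passed (-0.53 ± 0.06, edgeR adjusted p = 0.0168) and Lhx4 did not (-0.53 ± 0.08, edgeR adjusted p = 0.0547).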

How the data were processed

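Total RNA of whole spinal cord was made into stranded polyA libraries and sequenced as paired reads, per the labels' protocols. Bowtie2 2.2.0 and RSEM 1.2.12 were used, per the submitters' processing notes, with a genome build and annotation not given in the sources used here. For each of 38924 genes the authors deposited an RSEM expected count, TPM, FPKM and lengths, per the file headers. RSEM divides reads that fit several genes, so these expected counts need not be whole, and the split between paralogs or overlapping genes is uncertain. Levels are the deposited TPM. The authors' FPKM was left aside.

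The expected counts were rounded to whole numbers, filtered with filterByExpr on the 4 titled groups (17765 genes kept), scaled by TMM and tested over all genes by edgeR's quasi-likelihood test (version 4.0.16, R 4.3.3), with titled sex as a term, Benjamini-Hochberg adjustment and a threshold of 0.05. Standard errors are the log2 difference over the root of its F statistic. Alternatives were RLE size factors, DESeq2 1.42.0, a mean above 1 CPM, no filter, limma 3.58.1 on log2(TPM + 1) and log2(TPM + 0.1), no sex term, the library number as a linear term, and leaving out each library. Leaving out libraries 7, 9 and 11, and the share in the undisputed libraries, were added after seeing the data. The fits were tested on simulated data. Levels, intervals and figures used Python 3.11.15 with scipy 1.17.1, pandas 2.3.3, numpy 2.4.6 and matplotlib 3.10.9.

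The Hox genes and the further lists were chosen with earlier results of these data known. Genes are given with group values if among the 8 of highest mean TPM, the highest of their paralog group, passing in a comparison, or among the 4 of lowest p by name or by title, and, of each other list, up to 4 that passed or else the 2 of lowest p by name. Values of 1 Hox gene and of some list genes are not reported here. Hoxa13 and Hoxb13 are described after their values were seen. For 8 list genes under older names, rows were matched by Ensembl ID, and 7 list genes were not matched. Gene positions are from GENCODE M21, and sequences from RefSeq (GRCm38.p6). Since no label ties libraries to different animals, p-values reflect only how these libraries vary, which may be technical. Reads carried no molecular identifiers, so intervals cover counting error only.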

Additional observations from a re-analysis of the deposited data

Results flagged for a closer look

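Of 140 groups of 6 libraries, 11 had 1 library far from its nearest neighbour for the size of the group's range. Chance gives about 1 in 20 for independent, normally distributed groups. These groups share libraries between the labellings and hold genes that vary together, so the count cannot be weighed against that rate. By title, library 4 stood high among WT libraries in Hoxd10 (21.55 TPM, the others 13.28 to 14.46), Hoxd11 (21.85 TPM, the others 12.30 to 14.76) and Hoxa11 (4.97 TPM, the others 2.19 to 3.23). By name, where library 4 is C201R, it was not set apart in these 3 genes but in Hoxb2 (11.75 TPM, the others 9.77 to 10.47). Library 11 stood low among titled C201R libraries in Hoxc13 (0.82 TPM, the others 1.6 to 1.97), and high among libraries named WT in Hoxa3 (10.89 TPM, the others 8.90 to 9.47) and Hoxa9 (58.08 TPM, the others 46.22 to 50.52). Library 1 was low in Hoxb4, at 5.57 TPM, among C201R libraries by name (the others 7.13 to 7.57) and by title (the others 6.97 to 7.57). Among libraries named C201R, library 2 was low in Hoxa5 (24.35 TPM, the others 27.49 to 29.30) and library 10 high in Hoxb7 (35.06 TPM, the others 30.63 to 32.07). Libraries 4 and 11 are 2 of the 4 whose title and name disagree, and whether the labels bear on these values was not tested.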

How the results depend on the processing

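No Hox gene passed by library name or by title in any of 9 other settings or 12 fits that leave out a library. In the 8 undisputed libraries the count was 0 to 1 when a library was left out, the 1 being Hoxc6, lower in C201R without library 10 (edgeR adjusted p = 0.0469), and 0 in the 9 other settings. No Hox gene named for its p changed direction. The adjusted p of Hoxc6 ran from 0.0681 to 0.440 by name and from 0.0469 to 0.474 in the undisputed libraries. Hoxa13 was below the filter of a mean above 1 CPM. Calls over all genes by name ran from 41 with limma on log2(TPM + 1) to 335 with DESeq2, against 127. By title they were 18 with DESeq2 and 8 with the library number as a term, and 0 otherwise. In the undisputed libraries they ran from 5 without library 1 to 255 with DESeq2, against 29. The cause was not tested. The difference in the share of groups 10 to 13 by name ran from 0.61 percentage points without library 4 to 1.52 with group 9 added. By title it ran from -0.20 without libraries 7, 9 and 11 to 0.82 without library 4. In the undisputed libraries it ran from 0.57 without library 2 to 1.75 with group 9 added. All were within 1 SD between libraries of the value given. The larger group SDs, 1.46 by name, 1.54 by title and 1.13 in the undisputed libraries, exceed the differences of 1.03, 0.26 and 0.97. Lying within them therefore does not show that the differences are stable. Log2 differences by name ran from 0.54 to 1.99 for Hoxb13, from 0.29 to 1.70 for Hoxa13, from 0.36 to 1.06 for Hoxc13 and from 0.33 to 0.75 for Hoxc12. Levels of 1 to 3 counts are imprecise, the exact Poisson 95% interval of 3 counts being 0.62 to 8.77. No paired analysis was possible because the labels number the libraries 1 to 12 across all groups, so no groups share a number.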
